A study of Sus scrofa with 12 samples.

Results

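The mitochondrial solute carriers of the SLC25 family and the uncoupling proteins were followed in the ileal mucosa of 12 pigs (Sus scrofa) with high or low feed efficiency, the gain an animal makes from its feed. Members were every gene whose symbol on the array's platform annotation was SLC25A followed by a number, or UCP1, UCP2 or UCP3. The rule found 58 of the 47845 probe sets, and these stood for 37 of the 13755 genes with a named probe set. Where a gene had several, the probe set of highest mean over all 12 arrays stood for it. UCP1 and the family members without a named probe set were not analysed here. The high feed efficiency group held 3 male and 3 female pigs and the low feed efficiency group held 3 males and 3 females, all aged 140 days, with 1 array for each pig. The sources used here do not give the breed, the diet or the measure that set feed efficiency.

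Carriers of this family sit in the inner mitochondrial membrane, apart from a few in other membranes, and move nucleotides, phosphate, carboxylic acids, amino acids, acylcarnitines, cofactors and iron between the cytosol and the matrix. Their exchanges link ATP synthesis, the citrate cycle, fatty acid oxidation, urea cycle steps and haem synthesis to the rest of the cell. Enterocytes, the absorptive cells that line the ileum, oxidise glutamine and other fuels in their mitochondria and, in the pig, make citrulline from them.

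Values are log2 probe set signals as the authors deposited them, and they compare pigs for the same probe set, not carriers with each other. Of the 37 carriers, 36 passed a filter on dim probe sets, which dropped the lowest 30% by mean (a mean log2 value under 2.67). The exception was SLC25A31, the ADP/ATP carrier known from the testis, with a mean log2 value of 2.13 ± 0.10 in the high group and 2.23 ± 0.30 in the low group (SD, n = 6 each). The ileal enterocyte genes on the array, FABP6, SLC10A2 and NR1H4, had mean log2 values from 8.99 to 12.65, and the 18 enterocyte genes ranged from 5.86 to 12.25. High pig 1, a male, stood apart from the other arrays: its median correlation with them was 0.899, against 0.930 to 0.962 for the other 11. It held the lowest value of all pigs for 15 of the 36 carriers and for 18.4% of all 33405 probe sets that passed. All 6 males and 2 females had pig identifiers from 301 to 310, and the other 4 females had identifiers from 317 to 324, so sex and identifier range overlapped in part.

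**Figure D1:**
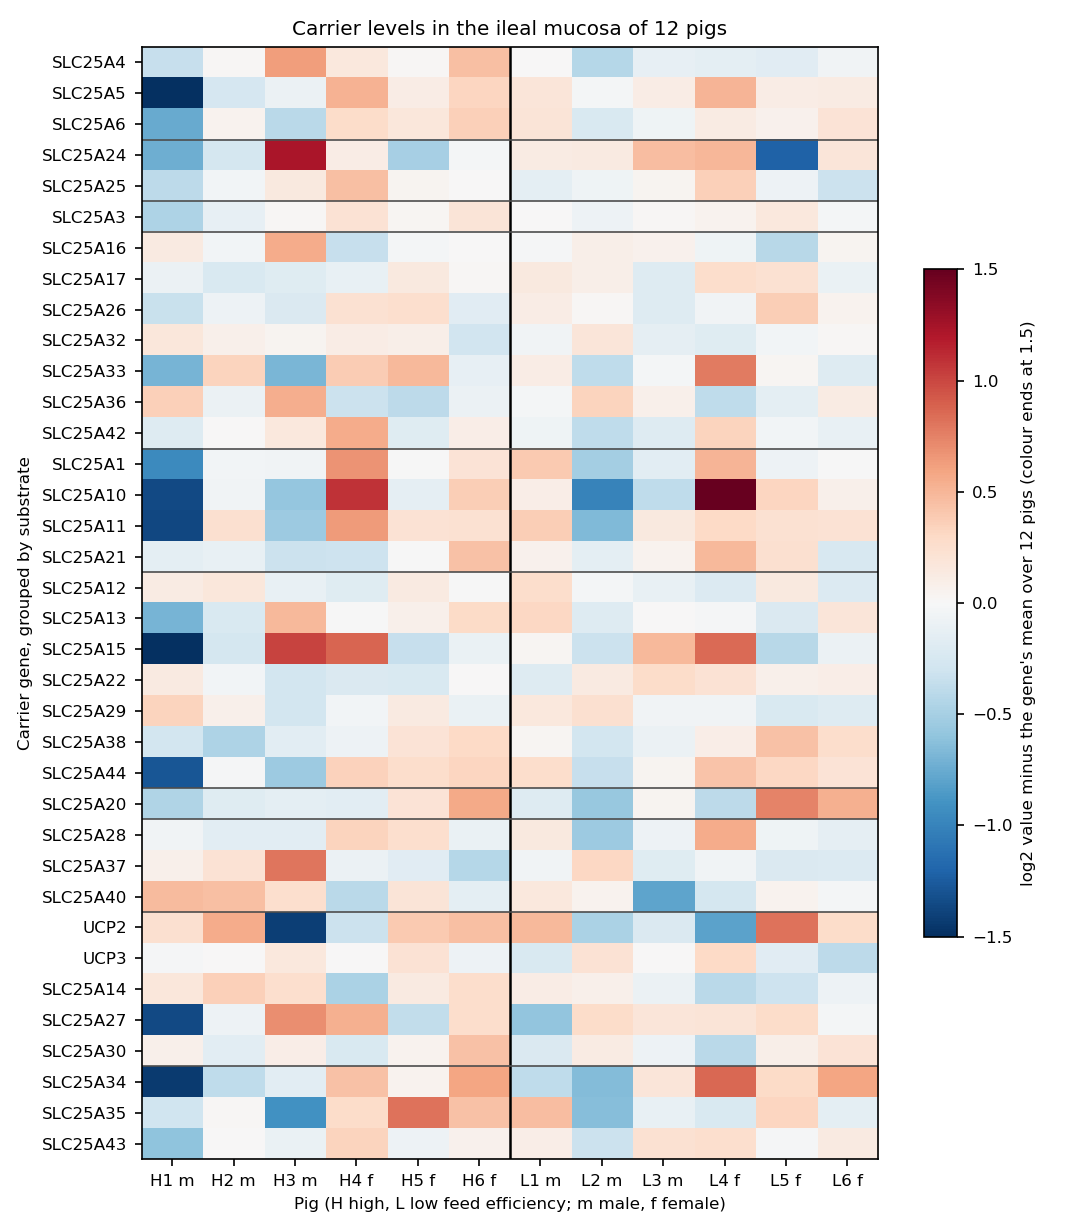
Each row is a carrier that passed the filter, grouped by substrate, each column a pig (H high, L low feed efficiency; m male, f female), and colour is the log2 value minus that carrier's mean over the 12 pigs. High pig 1 was the lowest of the 12 for 15 of the 36 carriers, and the high and low columns showed no carrier whose groups did not overlap.

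Comparing the feed efficiency groups, with sex as a term in the limma fit, 15 carriers had a higher mean in high than in low feed efficiency pigs and 21 a lower mean. No carrier passed an adjusted p of 0.05 (Benjamini-Hochberg, over every probe set tested), and neither did any other probe set (0% of 33405). At an unadjusted p under 0.05 there were also 0 carriers, against 3.17% of all probe sets. The median log2 difference over the carriers was -0.05, and over all probe sets it was 0.00. Differences ran from -0.33 to 0.31, and the smallest adjusted p was 0.999. No carrier had high and low values that did not overlap, which 0.0928% of all probe sets did. Without high pig 1, the median difference over the carriers turned to 0.03, with 15 lower and 21 higher. In bulk mucosa, fewer cells of a type and less RNA per cell cannot be told apart.

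Between the sexes, with feed efficiency as the other term, 25 carriers had a lower mean and 11 a higher mean in males. The median log2 difference, male minus female, was -0.21 over the carriers and -0.01 over all probe sets. No carrier passed an adjusted p of 0.05 in limma, a threshold that 0.0329% of all probe sets passed, and the smallest adjusted p was 0.093, for SLC25A34. At an unadjusted p under 0.05 there were 11 of 36 carriers, or 30.6%, against 19% of all probe sets. Of these, 8 were lower in males, where the share of all probe sets was 9.17%, and 3 were higher, where it was 9.79%. Carriers had 1 probe set each, and over all 12285 genes taken that way 20.1% were called, 1470 lower and 1005 higher in males. Among those genes 55.5% had a lower mean in males, with a median difference of -0.03. No carrier had male and female values that did not overlap, against 2.18% of all probe sets. The 11 carriers became 6 of 36 without low pig 2, against 13.7% of all probe sets, and 6 without high pig 6, against 15.3%. They became 4 of 36 without high pig 1 and low pig 2 together, against 10.8% of all probe sets. With both pigs out, the share of carriers called was thus near that of all probe sets.

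**Figure D2:**
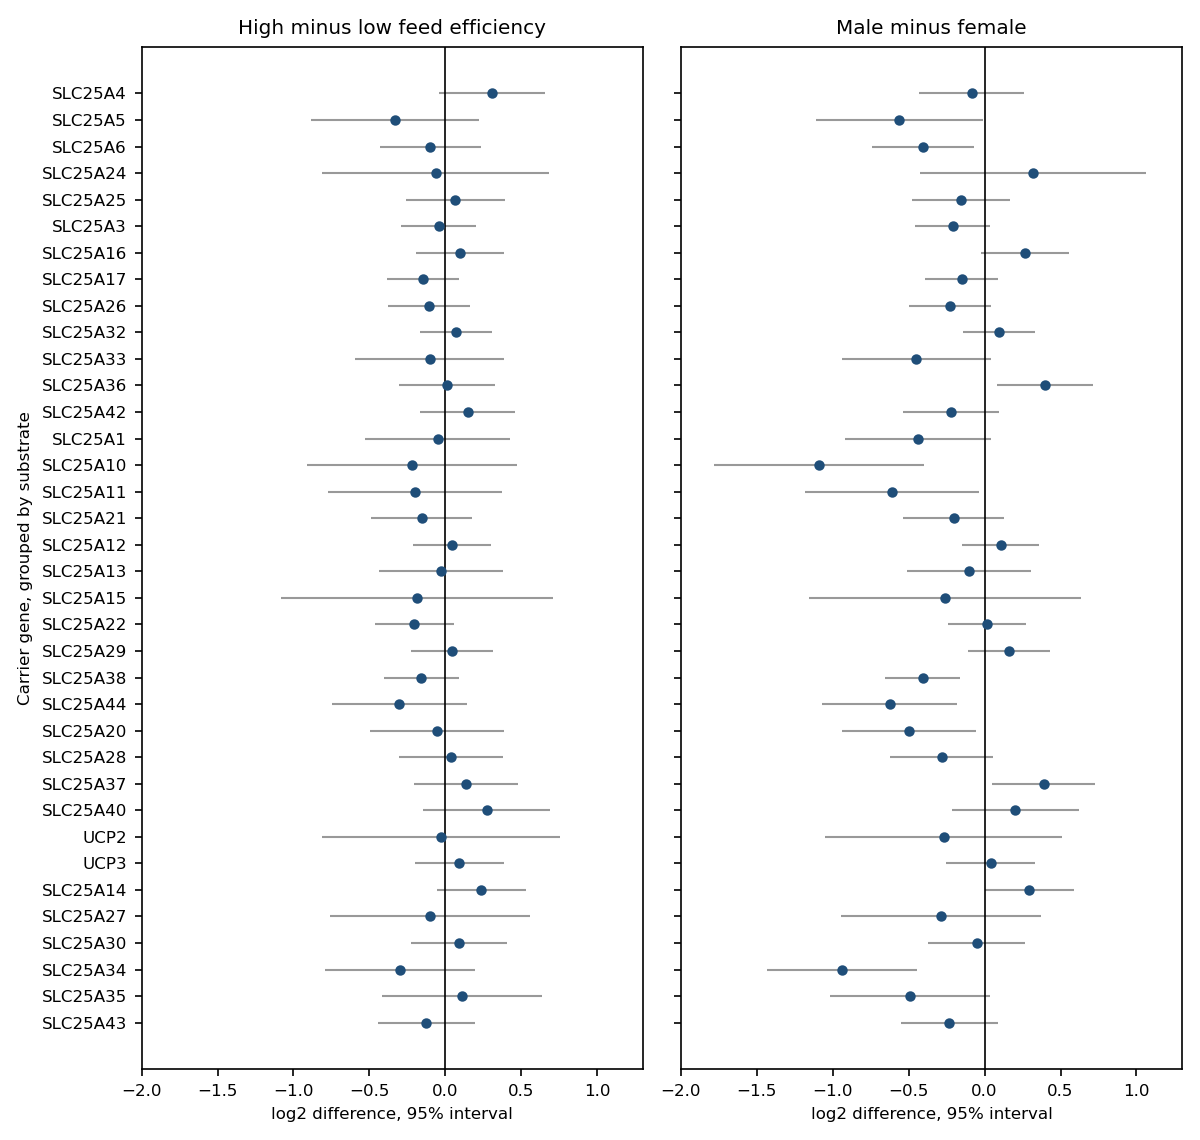
Points are log2 differences from the limma fit, high minus low feed efficiency on the left and male minus female on the right, and lines are 95% intervals. Every interval on the left holds 0, while 8 carriers on the right lie wholly below 0 and 3 above it, before adjustment for the number of probe sets.

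The ADP/ATP carriers hand matrix ATP to the cytosol in return for ADP. SLC25A4, the form known from heart and skeletal muscle, ranged from 6.28 to 7.25 with a median of 6.71 in high pigs, and from 6.19 to 6.63 with a median of 6.49 in low pigs. High pig 1 lay below all low pigs but pig 2, and the other 5 high pigs lay above every low pig, pigs 2 and 5 by little. The log2 difference, high minus low, was 0.31 ± 0.16 (SE), with the smallest p of all carriers in this comparison (unadjusted p = 0.0785 and adjusted p = 0.999 in limma). It was 0.28 in males alone, 0.33 in females alone and 0.41 without high pig 1, where its unadjusted p was under 0.05. Leaving out high pig 3 moved it most, to 0.19.

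SLC25A5, the form of proliferating tissues, ranged from 8.98 to 11.11 with a median of 10.61 in high pigs and from 10.56 to 11.10 with a median of 10.71 in low pigs. High pig 1, at 8.98, lay well below the next value of its group, 10.34, and the other high pigs spanned the low group. The difference of -0.33 ± 0.25 (SE) became -0.07 without that pig. In males SLC25A5 ran from 8.98 to 10.78 and in females from 10.70 to 11.11, a log2 difference of -0.56 ± 0.25 (SE, adjusted p = 0.256 in limma), and -0.30 without high pig 1.

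SLC25A6, the ubiquitous form, ranged from 10.55 to 11.67 with a median of 11.42 in high pigs and from 11.08 to 11.52 with a median of 11.41 in low pigs, so the groups had nearly the same median. Its range was 10.55 to 11.50 in males and 11.38 to 11.67 in females, and 5 of the 6 males lay below every female. The log2 difference between the sexes was -0.41 ± 0.15 (SE, adjusted p = 0.187 in limma). The phosphate carrier SLC25A3, which brings in the phosphate for ATP synthesis, spanned 10.07 to 10.76 in high pigs and 10.46 to 10.70 in low pigs, a difference of -0.04 ± 0.11 (SE).

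**Figure D3:**
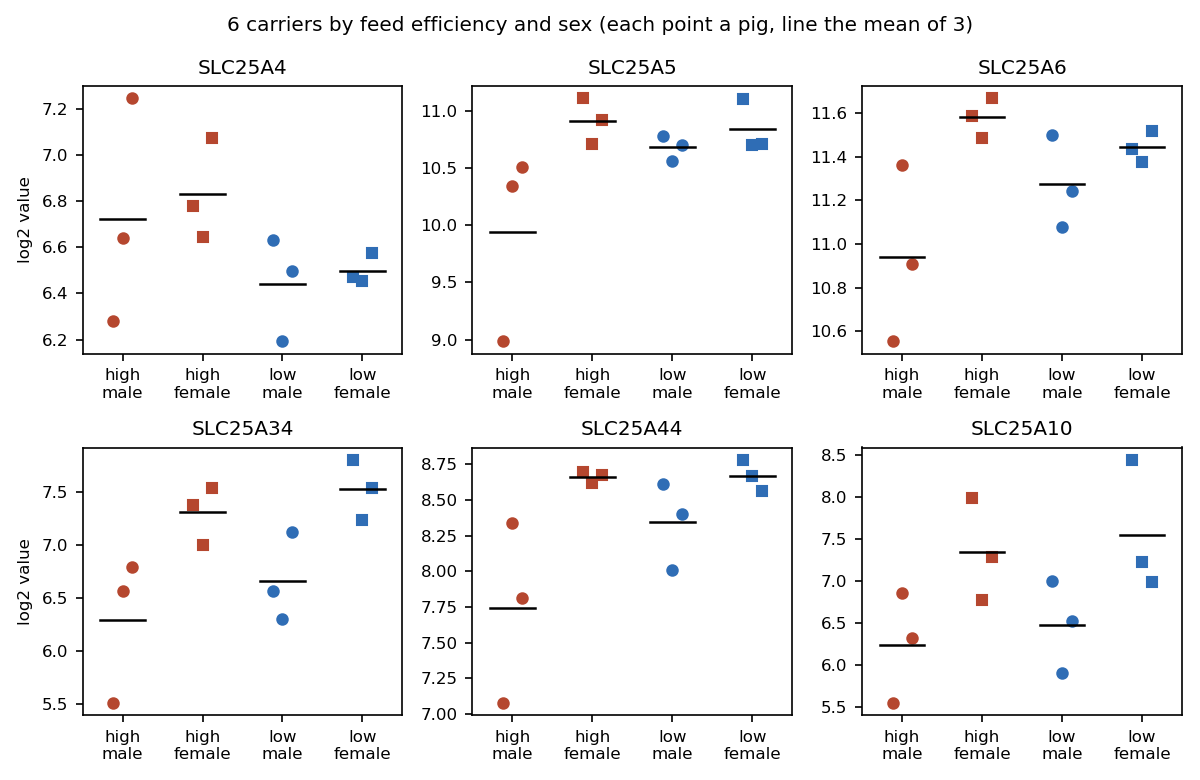
Each panel plots the log2 value of a carrier (vertical axis) for the 3 pigs of each combination of feed efficiency and sex, with a line at their mean. For SLC25A34 the females ranged from 7.004 to 7.81 and the males from 5.51 to 7.12; for SLC25A5 the lowest high male was high pig 1, at 8.98.

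The 4 carriers of di- and tricarboxylates all had lower means in high than in low pigs, by log2 differences from -0.22 to -0.05, and lower means in males than in females, from -1.09 to -0.20. SLC25A10, which exchanges malate or succinate for phosphate, ranged from 5.55 to 7.004 with a median of 6.43 in males and from 6.77 to 8.44 with a median of 7.26 in females. Its highest values were those of low pig 4 and high pig 4, both female, and 4 of the 6 males lay below every female. The log2 difference was -1.09 ± 0.32 (SE, adjusted p = 0.121 in limma), and it was -1.86 with the identifier range as a term or among pigs 301 to 310 alone. Between feed efficiency groups it was -0.22 ± 0.32.

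SLC25A11, the oxoglutarate and malate exchanger of the malate-aspartate shuttle, ranged from 6.64 to 8.38 with a median of 7.81 in males and from 8.22 to 8.65 with a median of 8.24 in females. Males were spread over a wider span than females, and the difference of -0.61 ± 0.26 (SE, adjusted p = 0.237) became -0.39 without high pig 1. SLC25A1, which exports citrate for fatty acid and sterol synthesis, ranged from 7.04 to 8.67 in high pigs and from 7.49 to 8.51 in low pigs, with a difference of -0.05 ± 0.22 that turned to 0.11 without high pig 1. SLC25A21, a carrier of oxoadipate, differed by -0.16 ± 0.15 between the feed efficiency groups. Its mean log2 value of 2.89 lay just above the filter at 2.67.

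Among the 7 amino acid carriers, 5 had lower and 2 higher means in high pigs, and 4 had lower means in males. SLC25A44, a carrier of branched-chain amino acids, ranged from 7.08 to 8.70 with a median of 8.48 in high pigs and from 8.01 to 8.78 with a median of 8.59 in low pigs. High pigs 1 and 3, both male, lay below every low pig. The difference of -0.30 ± 0.20 (SE) became -0.12 without high pig 1. By sex, SLC25A44 ranged from 7.08 to 8.62 in males and from 8.56 to 8.78 in females, and 5 of the 6 males lay below every female. The log2 difference, male minus female, was -0.62 ± 0.20 (SE, adjusted p = 0.148 in limma), and -0.44 without high pig 1.

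SLC25A38, which brings glycine into the matrix for haem synthesis, ranged from 6.09 to 6.59 with a median of 6.34 in males and from 6.48 to 6.99 with a median of 6.80 in females. The groups overlapped between 6.48 and 6.59, with a log2 difference of -0.41 ± 0.11 (SE, adjusted p = 0.118 in limma). Among pigs 301 to 310 alone it was -0.22, by design the same estimate as with the identifier range as a term. Its unadjusted p was under 0.05 in neither. SLC25A22, a glutamate carrier, ranged from 3.40 to 3.81 with a median of 3.55 in high pigs and from 3.48 to 3.95 with a median of 3.79 in low pigs, a difference of -0.20 ± 0.12 (SE, unadjusted p = 0.112). The aspartate and glutamate exchangers SLC25A12 and SLC25A13, which feed the malate-aspartate shuttle, differed between feed efficiency groups by 0.05 ± 0.12 and -0.03 ± 0.19.

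SLC25A15, which exchanges ornithine for citrulline, varied widely: it ranged from 4.27 to 7.03 with a median of 5.83 in high pigs and from 5.60 to 6.86 with a median of 5.99 in low pigs. High pig 1 had the lowest value and high pigs 3 and 4 the highest, so the high group spanned the low group. Its log2 difference, high minus low, was -0.18 ± 0.41 (SE), which turned to 0.15 without high pig 1.

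SLC25A20 exchanges acylcarnitines for carnitine and so admits fatty acids for oxidation. It ranged from 5.91 to 6.53 with a median of 6.30 in males and from 6.09 to 7.22 with a median of 6.85 in females. The 4 females with identifiers from 317 to 324 lay above every male, and the other 2 females, high pig 4 and low pig 4, lay within the male range. The log2 difference of -0.50 ± 0.20 (SE, adjusted p = 0.212 in limma) was 0.03 among pigs 301 to 310 alone.

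The 3 measured iron and glutathione carriers had higher means in high than in low pigs. SLC25A40, a glutathione importer, ranged from 4.999 to 5.89 with a median of 5.63 in high pigs and from 4.62 to 5.57 with a median of 5.42 in low pigs, a difference of 0.27 ± 0.19 (SE, unadjusted p = 0.181). It was 0.58 in males and -0.04 in females. SLC25A37, the mitoferrin of red cell precursors, ranged from 5.77 to 6.77 with a median of 6.10 in males and from 5.52 to 5.90 with a median of 5.77 in females. The highest value was that of high pig 3, and the log2 difference between the sexes was 0.39 ± 0.16 (SE, adjusted p = 0.208 in limma), or 0.27 among pigs 301 to 310.

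Of the 7 carriers of cofactors and other nucleotides, 4 had higher and 3 lower means in high pigs. SLC25A36, a pyrimidine nucleotide carrier, ranged from 6.74 to 7.37 with a median of 7.03 in males and from 6.43 to 6.95 with a median of 6.59 in females, a log2 difference of 0.40 ± 0.15 (SE, adjusted p = 0.176). SLC25A42, a coenzyme A carrier, differed by 0.15 ± 0.14 between feed efficiency groups. SLC25A17, a peroxisomal carrier of cofactors, differed by -0.15 ± 0.11 between them. Neither difference exceeded the spread between pigs. The other probe sets of SLC25A42 differed by -0.15 and 0.03, high minus low.

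Among the uncoupling proteins and their relatives, 3 had higher and 2 lower means in high pigs. UCP2, which carries small carboxylates out of the matrix, ranged from 7.56 to 9.53 with a median of 9.28 in high pigs and from 8.16 to 9.78 with a median of 8.99 in low pigs. High pig 3 had the lowest value and low pig 4 the next lowest, and the difference was -0.03 ± 0.36 (SE). It became 0.25 without high pig 3. UCP3, known from skeletal muscle, spanned 4.61 to 4.90 in high pigs and 4.30 to 4.99 in low pigs, with a difference of 0.09 ± 0.14. SLC25A14, a relative known from brain, ranged from 3.47 to 4.30 with a median of 4.16 in high pigs and from 3.54 to 4.06 with a median of 3.86 in low pigs. Its difference of 0.24 ± 0.13 (SE) had an unadjusted p of 0.104, and between the sexes it was 0.29 ± 0.13 (adjusted p = 0.262 in limma), or 0.59 among pigs 301 to 310.

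SLC25A34, whose substrate is not settled, had the smallest p of the carriers between the sexes. It ranged from 5.51 to 7.12 with a median of 6.56 in males and from 7.004 to 7.81 with a median of 7.46 in females. Low pig 3 was the only male above the lowest female, high pig 5. The log2 difference, male minus female, was -0.94 ± 0.23 (SE, 95% interval -1.43 to -0.45, adjusted p = 0.093 in limma). It was -1.12 among pigs 301 to 310 and -0.65 without high pig 1 and low pig 2. Between feed efficiency groups it was -0.30 ± 0.23, and -0.12 without high pig 1. SLC25A35, its close relative, differed by -0.49 ± 0.24 between the sexes and by 0.11 ± 0.24 between feed efficiency groups.

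Within pigs 301 to 310, which held 6 males and 2 females, 10 of the 11 carriers with an unadjusted p under 0.05 between the sexes had the direction of the whole set. SLC25A20 was the exception, and UCP2, outside those 11, went from -0.27 to 0.43. These pigs are part of the set from which the 11 were picked, so a shared direction was favoured beforehand. No share of all probe sets is given for it, so it is no result about the carriers. The identifier range as a term gives the same estimates by design, with other SEs. With it, 11 carriers had an unadjusted p under 0.05, against 20.1% of all probe sets, and 6 of the 11 were shared. SLC25A6, SLC25A11, SLC25A20, SLC25A37 and SLC25A38 left the 11, and SLC25A1, SLC25A25, SLC25A28, SLC25A33 and SLC25A42 entered. Among pigs 301 to 310 alone there were 9, against 15.3% of all probe sets. Of the 9, 4 were shared, namely SLC25A10, SLC25A14, SLC25A34 and SLC25A36. Markers of several cell types also differed in mean between the sexes, with 0 genes of any list past an adjusted p of 0.05 in limma, and their part in the carrier differences was not tested. A list score is the mean over its genes of the log2 value minus that gene's mean over the pigs. The goblet cell score, over 6 genes of which 5 were lower in males, ran from -1.28 to 0.39 in males and from 0.16 to 0.40 in females. The macrophage score, with 6 of 7 genes lower in males, ran from -0.75 to 0.27 in males and from 0.04 to 0.38 in females. The plasma cell score, with 7 of 8 lower, ran from -0.76 to 0.17 and from 0.12 to 0.33. T cell genes were lower in males for 8 of 8, fibroblast genes for 8 of 9 and ileal enterocyte genes for 3 of 3. B cell genes were higher for 7 of 8 and cycling cell genes for 7 of 9. Of the 18 enterocyte genes, 13 were lower and 5 higher in males, with a difference in mean score of -0.16. Endothelium genes were 4 lower and 4 higher, smooth muscle genes 8 lower and 3 higher, and enteric neuron and glia genes 4 lower and 3 higher. The T cell score ran from -0.63 to 0.25 in males and from -0.07 to 0.33 in females, the fibroblast score from -0.76 to 0.20 and from 0.03 to 0.36, and the ileal enterocyte score from -1.47 to 0.84 and from 0.08 to 0.47. The B cell score ran from -1.10 to 1.04 in males and from -2.87 to 0.78 in females, and the cycling cell score from -0.94 to 0.73 and from -0.997 to 0.61, so these overlapped widely. Goblet cell genes had mean log2 values of at least 8.84, macrophage genes 5.24 and plasma cell genes 5.57, so no marker used was at 0. The same score over the carriers ran from -0.43 to 0.06 in males and from 0.03 to 0.16 in females.

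Whether the feed efficiency difference itself differed between the sexes was tested by an interaction term. It was negative, that is lower in males than in females, for 28 of 36 carriers, with a median of -0.12 over the carriers and -0.01 over all probe sets. Of all probe sets 51.1% were negative, and of all genes with 1 probe set each 54.2%. No carrier passed an adjusted p of 0.05, as for all probe sets (0%), and none had an unadjusted p under 0.05, against 2.76% of all probe sets. SLC25A35 had the smallest p, with a term of -0.83 (unadjusted p = 0.0879), followed by SLC25A40 with 0.62, SLC25A5 with -0.81 and SLC25A6 with -0.47. For SLC25A5 the high minus low difference was -0.74 in males and 0.07 in females. High pig 1, at 8.98, was 1 of the 3 high males. Over both sexes the SLC25A5 difference was -0.33, and -0.07 without that pig. All terms above include high pig 1, and their values without it are not given here. Without high pig 2, the number with an unadjusted p under 0.05 was 4. No share of all probe sets is given for that setting, so this count is no result about the carriers.

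Enterocyte markers were lower in high than in low pigs for 17 of 18 genes, with no gene past an adjusted p of 0.05. The enterocyte score ran from -1.69 to 0.73 in high pigs and from -0.26 to 0.80 in low pigs, with high pig 1 lowest. The difference in mean score, high minus low, was -0.45, and -0.16 without high pig 1. The B cell score, with 8 of 8 genes higher in high pigs, ran from -1.10 to 1.04 in high pigs and from -2.87 to 0.78 in low pigs. Their part in the feed efficiency differences was not tested.

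Across the 12 pigs, 25 of the 36 carriers had a positive Pearson r with the enterocyte score. That was 69.4%, against 47.4% of all probe sets, and the median r was 0.24 for the carriers and -0.03 for all. After adjustment over the 36 carriers, 8 had a permutation p under 0.05, all with a positive r, namely SLC25A1, SLC25A5, SLC25A13, SLC25A15, SLC25A24, SLC25A25, SLC25A27 and SLC25A43. The permutation test was run on the carriers alone, so no share of all probe sets stands beside this count. Whether 8 is more than other genes would give was not tested. Without high pig 1, 1 carrier remained, SLC25A15. By Spearman's rho, 2 carriers had an adjusted permutation p under 0.05.

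SLC25A15, the ornithine carrier, was closest to the score, with a Pearson r of 0.95 (adjusted permutation p = 0.00036) and a Spearman rho of 0.89 (adjusted permutation p = 0.0097) over 12 pigs. Without the 2 pigs farthest from the median score, high pig 1 and low pig 4, r was 0.87, and it was 0.95 in males and 0.96 in females. SLC25A24, a calcium-regulated exchanger of ATP-magnesium for phosphate, had an r of 0.73 (adjusted permutation p = 0.041) and a rho of 0.83 (adjusted permutation p = 0.028), and its r was 0.74 without those 2 pigs. SLC25A5 had an r of 0.83 (adjusted permutation p = 0.041) and a rho of 0.55 (adjusted permutation p = 0.267). Its r was 0.35 without those 2 pigs, so over the whole set the relation rested on them. Within each sex r was 0.92 in the 6 males, high pig 1 among them, and 0.95 in the 6 females, low pig 4 among them.

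UCP2 ran the other way, with an r of -0.57 (adjusted permutation p = 0.152) and a rho of -0.63 over 12 pigs, which did not pass. Its r was -0.70 without the 2 farthest pigs, -0.50 in males and -0.91 in females. The pigs with the lowest UCP2 values, high pig 3 and low pig 4, also had the lowest B cell scores, -1.10 and -2.87. This was seen after the fact, and a relation of UCP2 to the B cell score was not tested.

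**Figure D4:**
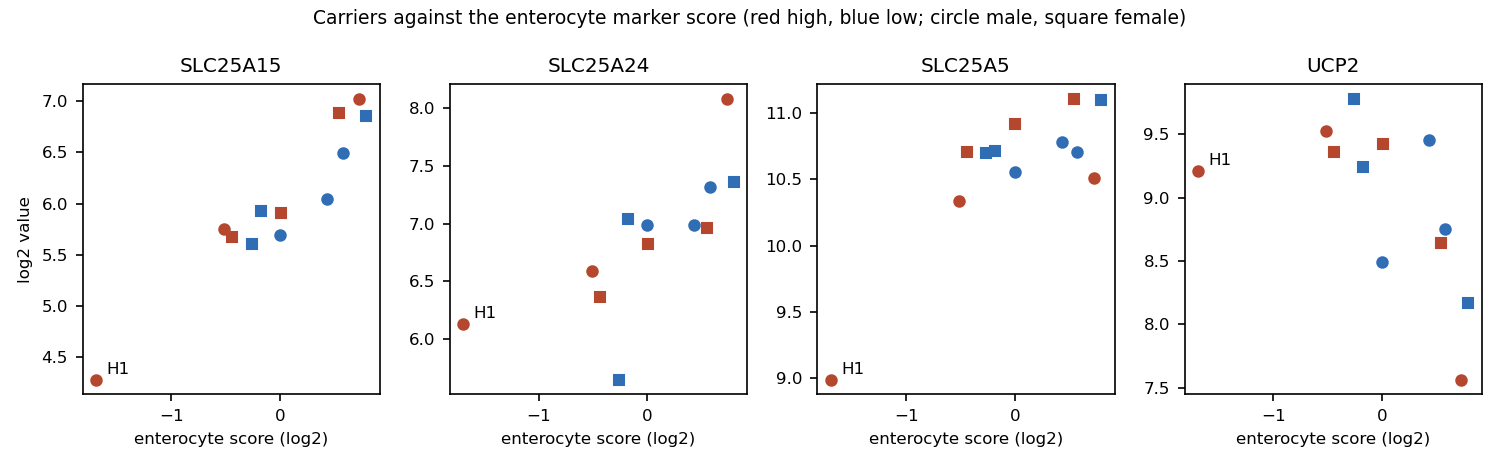
The log2 value of 4 carriers (vertical axis) is plotted against the enterocyte marker score (horizontal axis, log2) for 12 pigs, red for high and blue for low feed efficiency, circles for males and squares for females. SLC25A15 climbs with the score over its whole span, SLC25A5 is lowest in high pig 1 (H1), and UCP2 declines among the pigs other than H1.

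Genes that work beside the carriers were taken from 10 lists, of which 52 of 78 genes were on the array and passed the filter. Between feed efficiency groups 15 were higher and 37 lower in high pigs, where 49.4% of all probe sets were lower. The median log2 difference was -0.09, and 0 passed an adjusted p of 0.05 in limma. At an unadjusted p under 0.05 there was 1 in each direction, together 3.85% of the partner genes against 3.17% of all probe sets. A share so near that of all probe sets is no result about these genes. Those were ARG2, the mitochondrial arginase, at -0.36 ± 0.14 (SE), and NFS1, the cysteine desulfurase of iron-sulphur cluster assembly, at 0.26 ± 0.12. All 6 genes of the ornithine and urea cycle list were lower in high pigs, with a median of -0.48. That list's score ran from -1.52 to 0.40 in high pigs and from -0.09 to 0.74 in low pigs, so the groups overlapped. The difference in mean score was -0.45, and -0.19 without high pig 1. Leaving out that pig moved the malate-aspartate and glycerophosphate list from -0.18 to 0.002. The outer membrane and pyruvate entry list moved from -0.13 to 0.016. The carrier import, citrate, glutamate and haem lists also turned positive, to 0.015, 0.06, 0.07 and 0.05. The carnitine and calcium lists stayed negative, at -0.11 and -0.05, and the folate list was positive with and without that pig.

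Between the sexes, 12 of the 52 partner genes were higher and 40 lower in males, with a median of -0.19 and 0 past an adjusted p of 0.05. At an unadjusted p under 0.05 there were 9, or 17.3%, against 19% of all probe sets, so the share called was near that of all probe sets. Of these 8 were lower in males, 15.4% against 9.17% of all probe sets and 1470 of 12285 genes with 1 probe set each. Among the 8 were NAGS, which makes the activator of the urea cycle's entry enzyme, at -0.81 ± 0.25 (SE), MDH1, the cytosolic malate dehydrogenase, at -0.70 ± 0.27, and CPT1A, which makes the acylcarnitines that SLC25A20 carries, at -0.62 ± 0.23. The others were AMT at -0.58 ± 0.25, CRAT at -0.57 ± 0.20, FECH at -0.52 ± 0.20, CS at -0.49 ± 0.22 and VDAC2 at -0.46 ± 0.19. All 5 carnitine shuttle genes and all 6 malate-aspartate and glycerophosphate shuttle genes were lower in males. The 1 gene higher in males was CPOX, an enzyme of haem synthesis, at 0.53 ± 0.12 (SE, adjusted p = 0.092 in limma).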

How the data were processed

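Each pig's RNA was hybridised to its own Affymetrix Snowball array, a 1-colour design for the pig. The authors deposited log2 signals per probe set, and the log2 scale was read from the values, which run from 0.30 to 14.24. Per the labels' protocols, Qiazol extracts were cleared of DNA before biotin labelling. The submitters' processing notes name GCOS 1.1.1. The sources used here give no background correction or normalization method, and no further normalization was applied. Precision is limited by the number of arrays.

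The 123 control probe sets were left out. A limma 3.58.1 model (lmFit, eBayes; R 4.3.3) was fitted to 33405 probe sets with terms for feed efficiency and sex, and to the 4 group means for the interaction. P-values were adjusted over all probe sets. Correlations were computed with NumPy 2.4.6 in Python 3.11.15, with permutation p-values from 100000 resamples, two-sided. The pipeline was tested on simulated data.

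Carriers named were the 12 with the smallest p in each comparison, 4 for the interaction, and a list of core carriers. The plan was to name 2 partner genes per list, but those named were the ones with an unadjusted p under 0.05. SLC25A24, SLC25A25, SLC25A27 and SLC25A43 were named after their values were seen. Members and lists were chosen with earlier results of these data known. Alternatives were other filters, normalizations, variance models, array weights, model terms and pig subsets, each pig left out in turn, and a gene's probe sets averaged. Leaving out high pig 1 and low pig 2 together, and list scores without high pig 1, were added after seeing the data. SLC25A5 and SLC25A6 are close in sequence, as are the other ADP/ATP carriers, and the sources used here do not say how the probes separate them.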

Additional observations from a re-analysis of the deposited data

Results flagged for a closer look

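In 8 of 72 groups of 6 pigs, the extreme pig lay farther from its nearest neighbour, as a share of the group's range, than Dixon's 95% critical value allows. That value marks about 1 in 20 groups of independent, normally distributed values, and carriers measured in the same pigs are not independent. No share of all probe sets was computed, so the count is no result about the carriers. SLC25A5 had a log2 value of 8.98 in high pig 1, with the next pig at 10.34. SLC25A24 was at 5.65 in low pig 5, with the next at 6.99, and SLC25A16, linked to coenzyme A transport, was at 5.17 in the same pig, with the next at 5.52. In low pig 2, SLC25A11 was lowest at 7.35, against 8.16 for the next pig, and SLC25A37 was highest at 6.27, against 5.91. SLC25A14 was at 3.47 in high pig 4, with the next at 4.08. SLC25A27, a brain relative of the uncoupling proteins, was at 6.79 in low pig 1, with the next at 7.36. SLC25A32, a carrier of folate, was at 5.51 in high pig 6, with the next at 5.84.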

How the results depend on the processing

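No paired analysis was possible because replicate numbers only name pigs in accession order and pair no animals. No carrier passed an adjusted p of 0.05 under any alternative run, for feed efficiency or sex. The feed efficiency count at an unadjusted p under 0.05 (0) was 1 with array weights, the identifier range as a term, females alone, the mean of all probe sets, or both pigs out, and 0 to 1 with each pig left out. Of all probe sets, 4.01% were called with array weights, 3.48% with the identifier range and 2.6% in females alone. The share was 3.43% with both pigs out and 2.44% to 4.71% with each pig out. The median of -0.05 became 0.0063 with array weights, 0.040 in females and 0.024 with both pigs out, and ranged from -0.071 to 0.027 with each pig out. The sex count (11) was 7 with array weights, 4 with both pigs out and 6 to 12 with each pig out. The shares of all probe sets were 16.3%, 10.8% and 13.7% to 21%. The median for sex stayed between -0.26 and -0.12. The interaction count (0) was 2 with both pigs out and 0 to 4 with each out, given here without shares of all probe sets. The enterocyte count (8) was 1 without high pig 1 and 7 after quantile normalization. Of the named carriers' values, 43 of 522 turned sign for feed efficiency and 16 of 459 for sex. In the feed efficiency comparison, females alone gave -0.038 for SLC25A40, 0.074 for SLC25A5, -0.070 for SLC25A37, 0.15 for SLC25A1, 0.089 for SLC25A3, 0.14 for SLC25A6, 0.14 for SLC25A13, 0.027 for SLC25A15 and 0.081 for UCP2. Array weights gave 0.054 for SLC25A1, 0.0028 for SLC25A3, 0.0097 for SLC25A6, 0.0027 for SLC25A13 and 0.031 for UCP2. With both pigs out, SLC25A1 was 0.028, SLC25A3 0.025, SLC25A13 0.068 and SLC25A15 0.064. The mean of all probe sets gave 0.49 for SLC25A38 and 0.038 for SLC25A1, and quantile normalization 0.022 for SLC25A3 and 0.023 for UCP2. Pigs 301 to 310 gave 0.043 for SLC25A20, 0.019 for UCP2 and -0.035 for UCP3. With each pig out, ranges were -0.16 to 0.11 for SLC25A1, -0.079 to 0.032 for SLC25A3, -0.16 to 0.015 for SLC25A6, -0.15 to 0.11 for SLC25A13, -0.46 to 0.15 for SLC25A15, -0.21 to 0.048 for SLC25A20 and -0.24 to 0.25 for UCP2. For sex, the identifier range as a term and pigs 301 to 310 give the same estimate by design. It was 0.027 for SLC25A20, 0.43 for UCP2 and -0.13 for UCP3, and centring gave -0.0014 for UCP3. With both pigs out, SLC25A4 was 0.088, SLC25A13 0.091 and SLC25A15 0.19. With each pig out, ranges were -0.20 to 0.016 for SLC25A4, -0.23 to 0.036 for SLC25A13, -0.54 to 0.076 for SLC25A15, -0.48 to 0.0095 for UCP2 and -0.032 to 0.12 for UCP3. The causes were not tested. With 6 pigs per group, the SEs of the feed efficiency differences ran from 0.11 to 0.41. Differences of the sizes measured here passed no adjusted threshold, and SLC25A4, SLC25A14, SLC25A22 and SLC25A35 each had an unadjusted p under 0.05 in at least 1 alternative. These names do not cover the mean of all probe sets, for which no share of all probe sets is given.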

Other observations

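The 58 carrier probe sets included 21 that did not represent their gene, of which 14, from 11 genes, passed the filter. In the feed efficiency comparison 7 of the 14 had the sign of the representing probe set, and in the sex comparison 9 did. The 3 probe sets of SLC25A44 moved together: both others had an r of 0.97 and 0.92 with the representing probe set over the 12 pigs, and log2 differences between the sexes of -0.73 and -0.81. The other probe set of SLC25A24 had an r of 0.93. The other probe set of SLC25A38 did not follow, with an r of 0.02 and a log2 difference, high minus low, of 1.14 (unadjusted p = 0.014 in limma), against -0.16 for the representing probe set. The other probe sets of SLC25A6, SLC25A25 and SLC25A26 had an r of -0.39, -0.50 and -0.42 with theirs. Those of SLC25A1 and SLC25A11 had an r of -0.01 and -0.17. Their differences, high minus low, were 0.13 and 0.08, against -0.05 and -0.20 for the representing probe sets. Between the sexes they were -0.11 and 0.13, against -0.44 and -0.61.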
